A study of Mus musculus with 12 samples.

Results

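The genes described here carry the symbols of proteins of the cytosolic ribosome and of their close paralogs, and were read in blood monocytes of mice labelled TRIM33 or WT. They were chosen by symbol alone: Rpl or Rps with a number and at most 1 further letter, with or without a final l, together with Rplp0, Rplp1, Rplp2 and Rpsa. Ribosomal S6 kinases and genes whose symbol marks a pseudogene (-ps) were left out. Members were not filtered further by gene type, and not all of them are listed as protein-coding in the RefSeq gene table used. The rule took 59 of the 23279 genes tested, 38 of the large subunit and 21 of the small subunit, each read by 1 feature. Another 25 of the 82 protein-coding symbols that the rule takes in a RefSeq gene table, Rps6 and Rpl11 among them, are not analysed here.

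The study took its label from TRIM33, a chromatin-bound cofactor of SMAD transcription factors, and its title concerns deficiency of that gene in the resolution of colonic inflammation. The allele behind the genotype label is not spelled out. There were 6 TRIM33 arrays and 6 WT arrays, from mice aged 6 to 8 weeks. All 12 arrays carry the strain label C57BL/6 LyzCre, for a Cre recombinase that the lysozyme promoter drives in myeloid cells. The sources used here do not give whether WT mice carried Cre. By the design text the sort took monocytes that carry CD11b and CD115 with high Ly6C. The titles call 2 of the 6 arrays of either genotype a mix. No label ties an array to its own animal, so the p-values cover only the spread among arrays, part of which may be technical. In bulk RNA of this kind, fewer cells of a type and less RNA per cell cannot be told apart.

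Ribosomal proteins assemble with ribosomal RNA in the nucleolus into a small subunit, which decodes the messenger RNA, and a large subunit, which joins the amino acids. Their messenger RNAs are among the most abundant in growing cells and commonly begin with a C followed by a run of pyrimidines, the 5′ terminal oligopyrimidine tract, through which mTOR signalling controls their translation. Myc drives the synthesis of ribosomes as cells prepare to divide. Mutations in single ribosomal protein genes, RPS19 and RPS24 among them, cause a human anaemia in which red cell precursors fail.

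The windows shown are those of the 4 genes with the largest positive and the 4 with the largest negative difference between 2 sets of arrays, described further on, that cross the genotypes. They run from 80 bases before to 20 bases after the first transcription start that RefSeq lists, in GRCm38.p6, 5′ to 3′ on the strand of the gene. Capitals mark a pyrimidine tract, searched as a C followed by at least 6 letters that are C or T, on the sense strand, within 20 bases of the start on either side. The first 4 genes are those with positive differences, and the last 4 those with negative ones, which are smaller in size.
Rpl34 chr3:130730379-130730478 (minus strand): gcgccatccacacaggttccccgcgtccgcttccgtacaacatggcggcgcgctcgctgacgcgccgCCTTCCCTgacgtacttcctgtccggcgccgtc
Rpl36a chrX:134585574-134585673 (plus strand): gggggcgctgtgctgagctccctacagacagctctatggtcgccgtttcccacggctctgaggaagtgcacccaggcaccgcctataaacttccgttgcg
Rpl35a chr16:33056373-33056472 (plus strand): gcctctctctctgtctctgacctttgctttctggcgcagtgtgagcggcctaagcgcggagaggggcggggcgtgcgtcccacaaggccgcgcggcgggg
Rps13 chr7:116334171-116334270 (minus strand): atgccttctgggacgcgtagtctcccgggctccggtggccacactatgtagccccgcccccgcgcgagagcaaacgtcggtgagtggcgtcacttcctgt
Rpl5 chr5:107900448-107900547 (plus strand): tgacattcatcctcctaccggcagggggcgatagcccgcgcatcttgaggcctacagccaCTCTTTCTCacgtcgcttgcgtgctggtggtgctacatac
Rpl3l chr17:24727746-24727845 (plus strand): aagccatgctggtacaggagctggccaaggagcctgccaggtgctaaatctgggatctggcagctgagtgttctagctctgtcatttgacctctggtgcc
Rps27 chr3:90213629-90213728 (minus strand): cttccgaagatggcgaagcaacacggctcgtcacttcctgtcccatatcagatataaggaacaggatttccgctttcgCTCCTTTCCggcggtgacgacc
Rpl27a chr7:109519115-109519214 (plus strand): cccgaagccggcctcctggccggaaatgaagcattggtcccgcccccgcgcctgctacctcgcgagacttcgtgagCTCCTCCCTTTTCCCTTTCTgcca

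A tract of this kind lay in 1 of the 4 genes with positive differences, Rpl34, and in 3 of the 4 with negative differences, Rpl5, Rps27 and Rpl27a. The longest of those printed, in Rpl27a, ran for 20 letters. RefSeq promoters were matched for 45 of the 59 members. By the first start listed, 20 of these 45 (44.4%) held a tract, against 18.6% of the 27025 genes with a promoter. The share was 39.3% in the large subunit and 52.9% in the small subunit. In the 300-base promoters, from 250 bases before the start to 50 after it, CCGGAA, the core letters bound by ETS factors, was found on either strand in 20 of the 45 members (44.4%), against 15.2% of all genes with a promoter. AAGATGGC, letters bound by YY1, was found in 3 members (6.67%), against 2.88%. A match is a description of letters and not of binding, and these motifs were searched without regard to overlap with one another.

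The labels were first set against the genes they name. Trim33 read 6.06 to 6.23 on the 6 TRIM33 arrays and 6.81 to 7.05 on the 6 WT arrays (log2), with no overlap. The monocyte genes Ly6c2, Csf1r, Itgam and Ccr2 read between 9.40 and 12.55 on all arrays, above every array's median of 4.16 to 4.25. Clustering of the arrays without the ribosomal protein genes gave 2 sets of 6 arrays, which cross the genotypes. The first set, TRIM33 replicates 4, 5 and 6 with WT replicates 1, 2 and 3, read Xist, the RNA of the inactive X chromosome, at 9.01 to 10.2. The other, TRIM33 replicates 1, 2 and 3 with WT replicates 4, 5 and 6, read Xist at 3.36 to 3.64 and the Y-linked gene Eif2s3y at 8.09 to 8.47. They are called the Xist set and the Y set, the 4 mixes all lie in the Y set, and correlations between arrays were 0.986 to 0.992 within sets and 0.955 to 0.967 between them. The fit of genotype was therefore also made with the array set as a block.

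Readings of the large subunit features averaged from 2.05 for Rpl32l to 12.8 for Rplp1, and those of the small subunit from 2.99 for Rps29 to 12.3 for Rps21. Such readings depend on the probes, so they give no order of transcript amounts. Of the 59 features, 49 read above the median of all genes (4.24) and 10 below it: Rpl3, Rpl7, Rpl9, Rpl10, Rpl10a, Rpl10l, Rpl32l, Rps15, Rps16 and Rps29. The bright features also varied least: the median SD among 3 arrays of the same genotype and set was 0.123 for the 19 brightest members, 0.283 for the 20 in the middle and 0.285 for the 20 dimmest.

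No ribosomal protein gene passed the test of genotype. In the limma fit of all 23279 genes, 0 of 59 members passed a Benjamini-Hochberg adjusted p of 0.05, against 5 of all genes (0.0215%). With the array set added to the fit as a block, 0 of 59 passed, against 9 of all genes (0.0387%). Without adjustment, 2 of 59 members (3.39%) lay under a p of 0.05, Rps14 and Rpl23a, against 3.07% of all genes, a share near that of the members. With the block there were 4 (6.78%), which added Rps24 and Rps23, against 5.28% of all genes. All 4 read higher in TRIM33. No member separated the genotypes completely, against 0.198% of all genes whose 6 TRIM33 and 6 WT arrays did not overlap.

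The differences were small and leaned to the TRIM33 side. Large subunit members had a median difference, TRIM33 minus WT, of 0.07 on the log2 scale, with 27 of 38 above 0, and small subunit members one of 0.09, with 14 of 21 above 0. The median over all genes was −0.01, with 45.0% above 0, against 69.5% of the 59 members. These members share the same 12 arrays, so the count carries no test. Differences ran from −0.16 to 0.61 in the large subunit and from −0.16 to 0.42 in the small subunit. For 30 of the 59 members the 95% interval of the difference lay wholly within 0.5 either way, and for 42 it did so with the block. Leaving out single arrays gave medians between 0.02 and 0.10 for the large subunit and between 0.05 and 0.17 for the small subunit, lowest in both without TRIM33 replicate 5 and highest without TRIM33 replicate 2 for the large subunit and without WT replicate 2 for the small subunit.

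**Figure D1:**
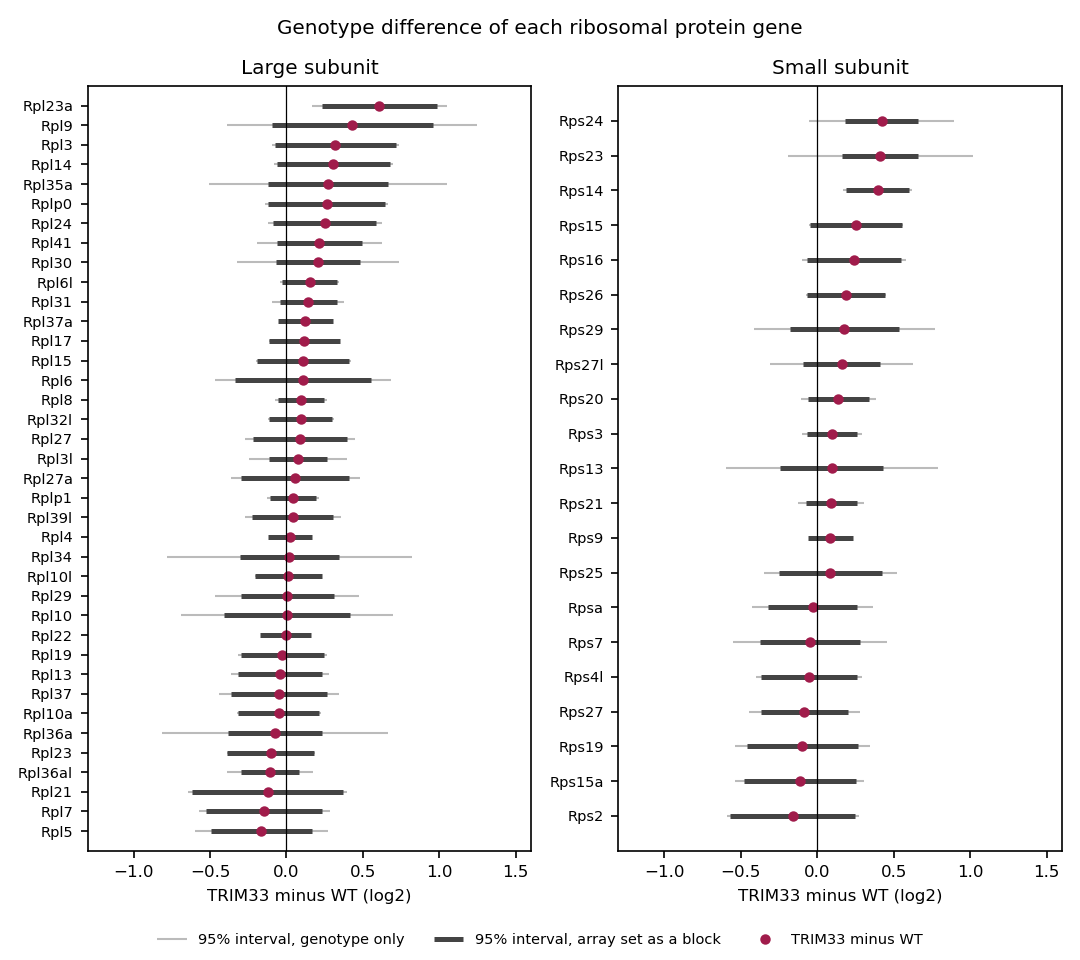
Difference between TRIM33 and WT (log2, horizontal axis) for each ribosomal protein gene, with the large and the small subunit apart and with the intervals defined in the key. Most points lie a little above 0, between −0.16 and 0.61, and no member passed the adjusted threshold.

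Averaged over members on each array, the large subunit read 6.83 ± 0.171 on TRIM33 arrays and 6.74 ± 0.156 on WT arrays (SD, n = 6 each). The small subunit read 7.52 ± 0.226 on TRIM33 arrays and 7.41 ± 0.182 on WT arrays (SD, n = 6 each). These SDs pool the array sets. Within the Xist set the large subunit averaged 6.95 ± 0.165 on 3 TRIM33 arrays and 6.86 ± 0.133 on 3 WT arrays, and within the Y set 6.71 ± 0.0286 on 3 TRIM33 arrays and 6.63 ± 0.0708 on 3 WT arrays. For the small subunit the averages were 7.71 ± 0.137 on TRIM33 and 7.55 ± 0.131 on WT arrays of the Xist set, and 7.33 ± 0.0436 on TRIM33 and 7.27 ± 0.0778 on WT arrays of the Y set (SD, n = 3 each). The TRIM33 and WT ranges overlapped in each set and subunit.

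**Figure D2:**
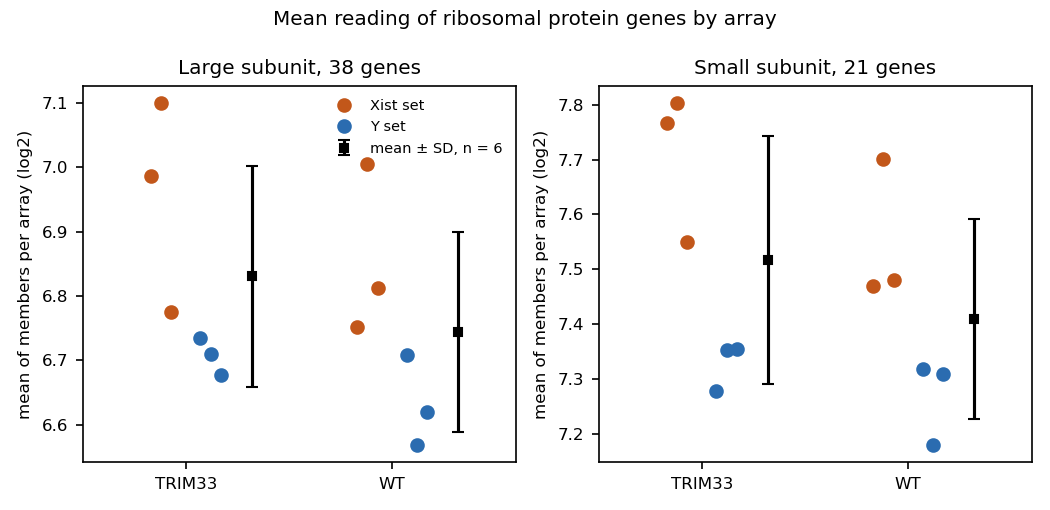
Mean log2 reading over the 38 large subunit genes (left panel) and the 21 small subunit genes (right panel) on each array, with TRIM33 left of WT and colour for the array set. Black squares and bars give the mean and SD of 6 arrays; the Xist set arrays (6.75 to 7.10 and 7.47 to 7.80) lie above the Y set arrays (6.57 to 6.74 and 7.18 to 7.35) in both panels.

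Among the small subunit proteins, Rps14 was the member with the smallest p in both fits. It lies beside the messenger RNA on the platform of the subunit, and loss of 1 human copy underlies the anaemia of the 5q− syndrome. Rps14 read 7.04 at the lowest, 7.23 at the median and 7.41 at the highest of 6 TRIM33 arrays, against 6.47, 6.86 and 7.05 for the same 3 values on 6 WT arrays. The genotypes overlapped only by 1 pair of arrays, TRIM33 replicate 6 at 7.04 and WT replicate 4 at 7.05. Rps14 averaged 7.23 ± 0.139 in TRIM33 and 6.83 ± 0.204 in WT (SD, n = 6 each), a difference of 0.40 (SE 0.105, 95% interval 0.17 to 0.62), or 1.32-fold. In limma its unadjusted p was 0.00232 and its Benjamini-Hochberg adjusted p was 1, and with the block the adjusted p was 0.401. The difference was 0.42 in the Xist set and 0.37 in the Y set. An exact two-sided permutation test over every assignment of the arrays to the genotypes gave p = 0.00433, with 0.00217 the smallest it can give; Rps14 and Rps24 were picked with earlier results of these data known, so this p adds no support. Among the 59 members, only Rps14 had every TRIM33 array above every WT array within each of the 2 sets, against 0.735% of all genes that did not overlap in the same direction in both.

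Rps24, which takes part in processing the precursor of the small subunit's RNA, read 8.19 at the lowest, 8.69 at the median and 9.22 at the highest of the TRIM33 arrays, against 7.89, 8.18 and 9.04 on the WT arrays. The genotypes overlapped, with the highest WT array, replicate 2, in the Xist set. The difference was 0.42 (SE 0.220, 95% interval −0.05 to 0.90) without the block and had an SE of 0.112 and an interval of 0.18 to 0.66 with it. Its unadjusted p in limma was 0.0774 without and 0.00200 with the block, and its adjusted p with the block was 0.517. Over the 12 arrays, the two-sided exact permutation test returned p = 0.113. Within sets the difference was 0.40 in the Xist set and 0.44 in the Y set, and in the Y set the TRIM33 arrays (8.19 to 8.49) lay above the WT arrays (7.89 to 7.96).

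Rps23, a protein of the decoding centre, read 5.47 to 6.81 on TRIM33 arrays and 5.01 to 6.44 on WT arrays. The difference was 0.41 (SE 0.280), and with the block the SE was 0.116 and the adjusted p in limma 0.597. The groups overlapped over most of their ranges, and the array sets did not overlap in this gene. Rps15, in the head of the subunit, differed by 0.25 (SE 0.142), Rps16 by 0.24 (SE 0.158) and Rps26, at the exit of the messenger RNA channel, by 0.19 (SE 0.122). Rps15 differed by 0.25 in the Xist set and 0.26 in the Y set, Rps16 by 0.47 in the Xist set and 0.01 in the Y set, and Rps26 by −0.03 in the Xist set and 0.41 in the Y set. The bright features Rps9, Rps20 and Rps21 differed by 0.09, 0.14 and 0.09, and the 95% interval of Rps9 was −0.05 to 0.22.

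In the large subunit Rpl23a had the smallest p. The protein sits at the exit of the peptide tunnel, where the signal recognition particle binds. Rpl23a read 4.79 at the lowest, 5.16 at the median and 5.87 at the highest of the TRIM33 arrays, against 4.27, 4.46 and 5.35 on the WT arrays. All 6 TRIM33 arrays lay above the WT mean, and 5 of the 6 WT arrays lay below every TRIM33 array; WT replicate 3, at 5.35, did not. The difference was 0.61 (SE 0.205, 95% interval 0.16 to 1.05), the unadjusted p in limma 0.0110 and the adjusted p with the block 0.602. Without WT replicate 3 the difference was 0.76, and 0.74 with the block, with an adjusted p of 0.251.

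The other large subunit members with small p-values differed by less. Rpl3, at the centre where peptide bonds form, differed by 0.32 (SE 0.193). Rpl14 differed by 0.31 (SE 0.181) and Rpl24, part of a bridge to the small subunit, by 0.25 (SE 0.172). Rpl6l and Rpl37a differed by 0.15 (SE 0.0897) and 0.12 (SE 0.0801). Among bright features with narrow intervals, Rpl4, which lines the peptide tunnel, differed by 0.02 (95% interval −0.11 to 0.15), Rpl8 by 0.09 (−0.08 to 0.26), Rpl22 by −0.01 (−0.17 to 0.16) and Rplp1, a protein of the stalk that recruits elongation factors, by 0.04 (−0.13 to 0.21). Rpl5, which binds the 5S ribosomal RNA and, outside the ribosome, the p53 regulator Mdm2, had the most negative difference of the subunit, −0.16. That value was −0.41 in the Xist set and 0.09 in the Y set, and it ran from −0.27 without TRIM33 replicate 1 to −0.0018 without TRIM33 replicate 6.

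**Figure D3:**
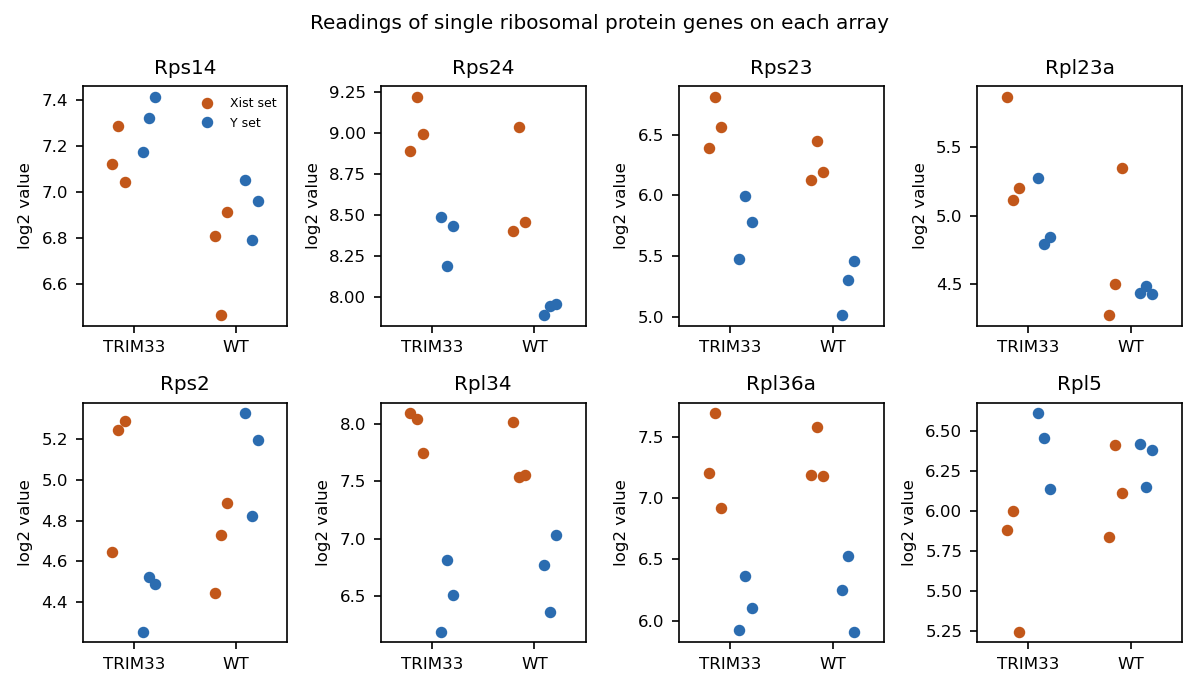
Log2 reading of single ribosomal protein genes on each of the 12 arrays, with TRIM33 left of WT and colour for the array set. Rps14 shows 1 pair of arrays out of order between the genotypes (7.04 in TRIM33 and 7.05 in WT), and Rpl23a shows WT replicate 3 at 5.35 apart from the other WT arrays.

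Within the Y set, 8 of 59 members (13.6%), 3 of the large and 5 of the small subunit, had all 3 TRIM33 arrays above all 3 WT arrays, against 4.61% of all genes. They were Rpl6l, Rpl23a, Rpl27, Rps3, Rps14, Rps23, Rps24 and Rps26. Within the Xist set there were 6 such members (10.2%), Rpl8, Rplp0, Rps9, Rps14, Rps16 and Rps21, against 4.41% of all genes. In the other direction the Y set had 1 member, Rps2, against 5.43% of all genes, and the Xist set 0, against 5.86% of all genes. Apart from Rps14, the members that separated were different ones in each set.

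The difference by genotype was also tested against the array set. No member passed the interaction of genotype and set, against 1 of all 23279 genes. Without adjustment 1 of 59 lay under 0.05, Rps2, against 4.21% of all genes. Rps2 lies at the entry of the messenger RNA channel. It read 4.64, 5.25 and 5.29 on TRIM33 arrays of the Xist set, against 4.44, 4.73 and 4.89 on its WT arrays. In the Y set it read 4.25, 4.52 and 4.49 on TRIM33 arrays, against 5.33, 4.82 and 5.19 on WT arrays. The difference was thus 0.37 in the Xist set and −0.69 in the Y set, and the interaction was 1.07 (SE 0.27; limma, unadjusted p = 0.00157, adjusted p = 0.996).

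The array sets differed by more than the genotypes did, with differences of up to 1.22 against up to 0.61. The labels do not name these sets, so their difference is given as a description. Of the 59 members, 45 read higher in the Xist set than in the Y set, with a median difference of 0.23, while 50.3% of all genes did so, with a median of 0.00. The large subunit had 27 of 38 above 0 with a median of 0.15, and the small subunit 18 of 21 with a median of 0.26. The sets did not overlap, with the Xist set higher, in 10 members (6 large and 4 small), against 7.45% of all genes, and with the Xist set lower in 1 member, Rpl3l, against 6.59% of all genes. Dim genes lower these shares: among genes above the median level, 20.4% of 49 members were higher without overlap, against 13.9% of all such genes. A difference above 0.5 was found in 14 members, 8 large and 6 small, against 7.35% of all genes, and below −0.5 in 0 members, against 6.77% of all genes.

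Rpl34, a protein of the large subunit, read 7.54 to 8.09 in the Xist set, against 6.19 to 7.03 in the Y set, a difference of 1.22 or 2.33-fold. Rpl36a, beside the exit site for transfer RNA, read 6.92 to 7.69 in the Xist set, against 5.91 to 6.53 in the Y set (1.11, 2.16-fold). Rpl35a, mutated in some families with the same human anaemia, read 6.34 to 7.51 in the Xist set, against 5.30 to 6.15 in the Y set (1.10). Rps13, part of a bridge between the subunits, read 7.11 to 7.66 in the Xist set, against 5.72 to 6.83 in the Y set (0.998). In each of these 4 genes every Xist set array lay above every Y set array, and both genotypes were on each side.

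The other genes without overlap were Rpl29, Rpl36al, Rplp1, Rps21, Rps23 and Rps27l. In the opposite direction, Rpl5 read 5.24 to 6.41 in the Xist set, against 6.14 to 6.61 in the Y set (−0.44). Rps27 read 6.12 to 6.74 in the Xist set, against 6.36 to 7.02 in the Y set (−0.36), and Rpl27a 8.36 to 9.60 in the Xist set, against 9.10 to 9.37 in the Y set (−0.35). In these 3 genes the sets overlapped. The 20 members with a pyrimidine tract had a median difference between sets of 0.08, and the 25 members with a promoter and no tract one of 0.36. By genotype the same groups had medians of 0.09 and 0.07. Only the first start listed for each gene was searched, so a member without a tract here may have one at another start.

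**Figure D4:**
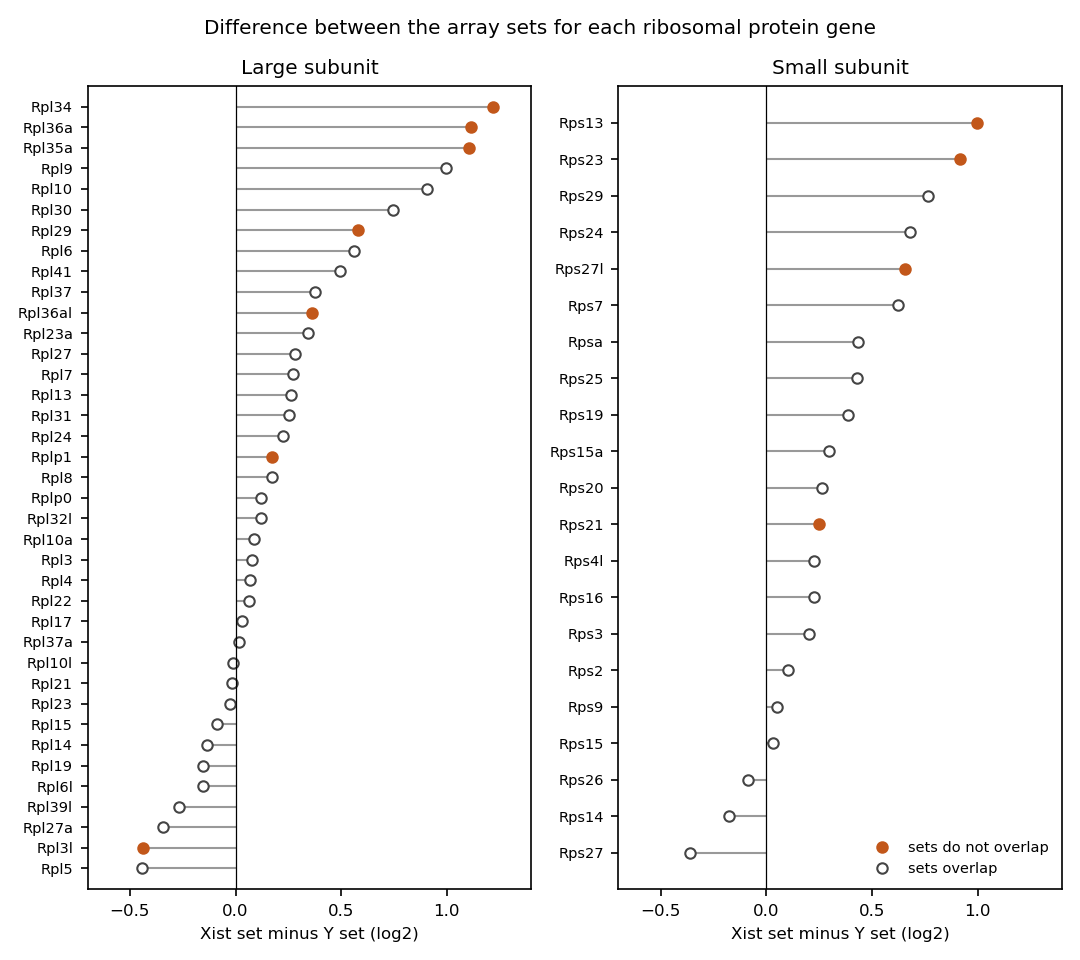
Difference between the Xist set and the Y set (log2, horizontal axis) for each ribosomal protein gene, sorted within subunit, with filled points where the 6 and 6 arrays do not overlap. Rpl34, Rpl36a and Rpl35a head the large subunit at 1.22, 1.11 and 1.10, Rps13 heads the small subunit at 0.998, and Rpl5 and Rpl3l lie lowest at −0.44.

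The members did not keep to 1 level within a set. TRIM33 replicate 5 had the highest reading of all 12 arrays for 16 members, WT replicate 2 for 13 and TRIM33 replicate 4 for 10, all of the Xist set. WT replicate 5 of the Y set was lowest for 10 members, and TRIM33 replicate 1 was lowest for 9 and highest for 8. Averaged over members, the Xist set read 6.75 to 7.10 for the large subunit, against 6.57 to 6.74 in the Y set, and 7.47 to 7.80 for the small subunit, against 7.18 to 7.35 in the Y set. When each array was left out in turn, the median set difference over the 59 members lay between 0.18 and 0.27 and 43 to 47 members were above 0. With the mixes left out, which leaves 2 arrays in the Y set, 40 of 59 were above 0, with a median of 0.10.

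**Figure D5:**
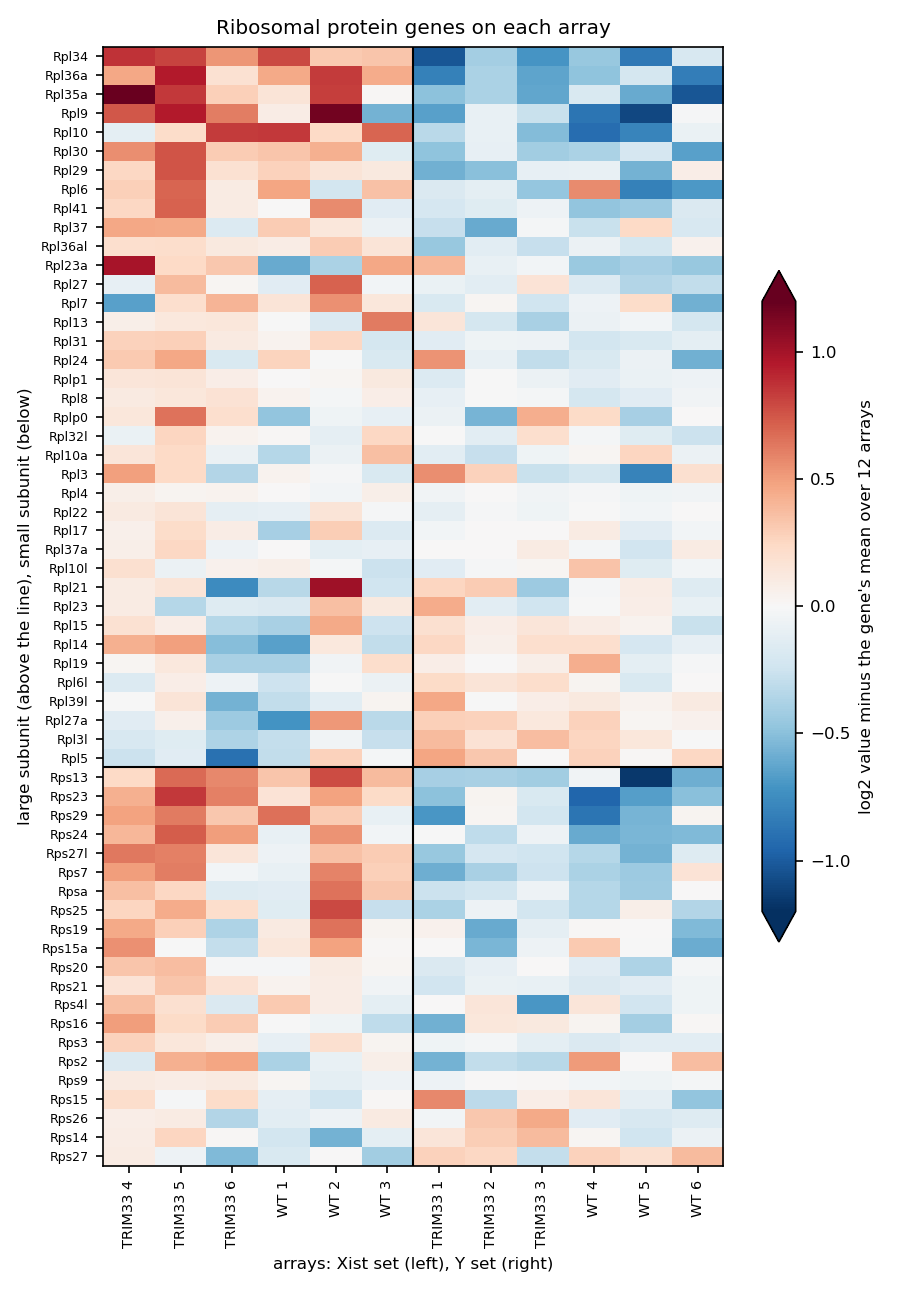
Log2 reading of each of the 59 ribosomal protein genes minus that gene's mean over 12 arrays, with the Xist set left and the Y set right and TRIM33 left of WT in each. Warm colours on the left for Rpl34, Rpl36a, Rpl35a, Rps13 and Rps23 face cool ones on the right, and most other rows change from array to array within a set.

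Other measures moved with the array sets, and their part in the set difference was not tested. The list of the sorted cells themselves, Ly6C-high monocytes, averaged 10.4 to 10.6 in the Xist set, against 10.9 to 11.2 in the Y set, with 12 of 13 genes lower in the Xist set and 5 of them without overlap. The cell cycle list averaged 9.24 to 9.32 in the Xist set, against 4.88 to 5.78 in the Y set, and Mki67, a marker of cycling cells, read 9.46 to 9.92 in the Xist set, against 4.91 to 6.58 in the Y set. The 4 erythroid genes measured, of 9 listed, averaged 3.28 to 3.83 in the Xist set, against 6.75 to 8.33 in the Y set, with Alas2, the first enzyme of haem synthesis in red cell precursors, at 3.58 to 4.14 in the Xist set, against 7.83 to 10.2 in the Y set. Neutrophil genes averaged 6.88 to 7.39 in the Xist set, against 5.32 to 6.55 in the Y set. Of these 15 genes 10 were higher in the Xist set, 7 without overlap, and 1 was lower without overlap. Only 10 of the 15 read above the median of all genes. Platelet genes averaged 3.88 to 4.04 in the Xist set, against 4.68 to 5.94 in the Y set. Genes of the handling stress list, which respond while cells are dissociated and sorted, averaged 7.75 to 8.18 in the Xist set, against 8.49 to 9.81 in the Y set. T cell genes averaged 3.45 to 3.64 in the Xist set, against 3.93 to 4.61 in the Y set, and B cell genes 4.52 to 4.73 in the Xist set, against 4.77 to 5.38 in the Y set. Only 3 of 9 T cell genes, 3 of 9 B cell genes and 4 of 8 platelet genes read above the median of all genes. Among the 9 B cell genes 3 were higher in the Xist set, and 1 was lower without overlap. By genotype, all 8 natural killer cell genes measured read lower in TRIM33, at a list average of 3.67 to 4.15 in TRIM33 and 3.92 to 4.30 in WT, and 12 of 14 handling stress genes read lower in TRIM33. Of all genes, 45.0% read higher in TRIM33. Of both lists, 0 genes passed in either fit, and only 3 of the 8 natural killer cell genes read above the median of all genes. Of the 15 neutrophil genes 10 read higher in TRIM33, at a list average of 5.38 to 7.39 in TRIM33 and 5.32 to 7.31 in WT, and none passed in either fit. Stfa2l1 differed by 1.97 (SE 0.681; limma, adjusted p = 0.401 with the block). Smaller differences with SEs above them, without the block, were those of S100a9 (0.80, SE 0.877), S100a8 (0.73, SE 0.896) and Lcn2 (0.69, SE 0.710). The other 5 neutrophil genes lay below 0, down to −0.22 for Ngp. The part of these lists in the differences by genotype was not tested. On this log2 scale no value of 0 marks absence.

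Members whose symbol ends in l, here called paralogs, numbered 8, and 5 of them had the parent in the table. Some paralogs of ribosomal proteins replace or accompany their parent in some tissues, which was not tested for these 8. Features of near-identical copies may share signal, so these pairs are uncertain. Rps27l, a paralog that responds to p53, read 8.74 to 9.44 in the Xist set, against 8.24 to 8.65 in the Y set (0.66), while its parent Rps27 differed by −0.36. Rpl36al read 10.8 to 11.0 in the Xist set, against 10.3 to 10.8 in the Y set (0.36), on the same side as Rpl36a at 1.11. Rpl3l, a form of striated muscle, read 4.35 to 4.67 in the Xist set, against 4.71 to 5.10 in the Y set (−0.44), and its parent Rpl3 differed by 0.08. Rpl6l and Rpl10l had set differences of −0.15 and −0.01, and their parents Rpl6 and Rpl10 of 0.56 and 0.91. Those of Rpl39l, Rps4l and Rpl32l were −0.27, 0.23 and 0.12. By genotype, 0 of the 8 paralogs passed, and their unadjusted p-values in limma all lay above 0.05.

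The rest of the machinery of protein synthesis was read from lists that hold none of the 59 members, and 0 of their genes passed the test of genotype in either fit. All 10 genes of the elongation factor list were measured, of which 9 differed upward, with a median of 0.07. That list also holds Eef2k and Eef1e1, which are not elongation factors themselves. Eif5a differed by 0.19 (SE 0.148) and Eef1d by 0.13 (SE 0.0991). Of 31 genes of the initiation factor list 26 were measured, 14 above 0 and 12 below, with a median of 0.03. Among them are Eif4ebp1 and Eif4ebp2, which are not initiation factors themselves. Eif3e differed by 0.28 (SE 0.156) and Eif5 by −0.19. Other messenger RNAs with a terminal pyrimidine tract were measured for 8 of 9, with 3 above 0 and a median of −0.01. Tpt1 was at −0.28, with a mean reading of 2.71, below the median of all genes, and Btf3 at 0.13. Several genes of this list also stand in the other lists, so the counts are not separate. The ribosomal protein genes outside the symbol rule that were measured, 3 of 9, differed by −0.10 for Fau, −0.30 for Rps3a1 (SE 0.202) and 0.03 for Rpl7l1. The list of regulators had 6 of 13 genes above 0, with Rps6kb2, an S6 kinase, at 0.20 and the factor Sp1 at −0.17. The list of chaperones of ribosomal proteins and nascent chains had 5 of 7 above 0, with Heatr3 at −0.16.

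Genes of ribosome biogenesis, which make and process ribosomal RNA, were measured for 49 of 50. By genotype 23 were above 0 and 26 below, with a median of −0.01. Ubtf, a factor for transcription of ribosomal RNA genes, read 7.67 to 7.95 in TRIM33, against 7.89 to 8.22 in WT, a difference of −0.25 (SE 0.0792; limma, unadjusted p = 0.00794). Mrto4, an assembly factor of the large subunit, differed by 0.36 (SE 0.145; limma, unadjusted p = 0.0297). Between the array sets, 39 of 49 biogenesis genes read higher in the Xist set, with a median of 0.28, against 50.3% of all genes, and 12 did so without overlap, against 7.45% of all genes. All 49 read above the median level of all genes, and 13.9% of the genes above that level did so without overlap. Nop58 and Nop56, of the particle that methylates ribosomal RNA, differed by 1.38 and 1.17, and Dkc1, of the one that makes pseudouridine, by 1.05. Myc read 6.90 to 7.30 in the Xist set, against 5.15 to 6.12 in the Y set. The list of regulators that holds Myc leaned the other way, with 3 of 13 genes higher in the Xist set and a median of −0.15. Higher there were also 3 of 8 other tract messenger RNAs (median −0.08) and 14 of 26 genes of the initiation factor list (0.02). For the elongation factor list it was 7 of 10 (0.22), and for the list of chaperones of ribosomal proteins and nascent chains 6 of 7 (0.38). Nop58, Nop56, Dkc1 and Myc were chosen after their values were seen.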

How the data were processed

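RNA of 6 TRIM33 and 6 WT samples was hybridised to 1 single-colour array each. The labels' protocols give extraction with RNeasy Mini columns and amplification of 900 pg with NuGEN Ovation Pico V2. One label describes sorted CD4 T cells, but the design and the source names give monocytes, which were followed. The authors deposited log2 values, 1 for each of 24479 features. RMA and Partek were used, per the submitters' processing notes, with versions, chip definition and any batch step not given in the sources used here. RMA gives all arrays a common distribution of values, which would mask a change of most genes at once, and it compresses differences of dim features. Arrays carry no counting depth, so the number of arrays limits the precision.

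Of the features, 1198 carried no symbol. A RefSeq gene table of GRCm38.p6, matched by Entrez number, changed 0 symbols, and where a symbol had several features the one with the higher mean was kept. The test was that of limma 3.58.1 (lmFit and eBayes, R 4.3.3) over all 23279 genes, with genotype alone and again with the array set as a block, at a Benjamini-Hochberg adjusted p of 0.05. Medians and counts over members are descriptions. The sets came from clustering the arrays (average linkage on 1 minus the Pearson correlation) without the members. Promoters came from RefSeq, and plots were made in Python 3.11.15 with matplotlib 3.10.9.

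Named genes were the markers Rps14 and Rps24, members past the threshold, the 6 of each subunit with the smallest p, the 3 highest and 3 lowest readings of each subunit, the 4 largest set differences each way, paralogs with their parents, and 2 genes of each other list. Any other member was named with its values known. The members, lists, array sets and this rule were chosen with earlier results of these data known.

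The alternatives were the array set as a block, each set alone, arrays that are not mixes, preparation as a covariate, mixes with the mix number as a replicate block, other normalizations and variance models, a filter on dim features, array weights, all features, and each array left out in turn. Fits leaving out arrays beside the block, the mixes without their block and the settings of the set difference were added after the data were seen. The mix numbers pair the arrays by number only.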

Additional observations from a re-analysis of the deposited data

Results flagged for a closer look

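Of 70 groups of 6 arrays checked, 2 held an array far from the other 5, by a test that chance alone passes in about 1 group in 20. For Rpl23a, WT replicate 3 read 5.35, and the other 5 WT arrays read 4.27 to 4.498. For Rps16, TRIM33 replicate 1 read 3.22, and the other TRIM33 arrays read 3.92 to 4.30. Without that array the difference of Rps16 was 0.38.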

How the results depend on the processing

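The count of members past the threshold was 0 under each of 39 alternatives. Of these, 12 left out an array and 12 more did so with the array set as a block. Few of all 23279 genes passed there either, from 0 with the arrays that are not mixes to 15 with the block and without TRIM33 replicate 4. A count of 0 among 59 members is near that share. The smallest adjusted p of a member in any of these fits was 0.128, for Rps24 with the block and without WT replicate 2. Counts at an unadjusted p of 0.05 ran from 2 to 5 of 59 when arrays were left out, against 2.83% to 3.48% of all genes. With the block they ran from 4 to 10, against 4.51% to 6.01% of all genes, and the 10 (16.9%), without WT replicate 2, stood against 5.88%. Under the other settings they ran from 2 to 7, against 2.29% to 6.07% of all genes. The median of the large subunit lay between 0.05 and 0.10 under the 15 other settings, and that of the small subunit between 0.06 and 0.18, highest with the Xist set alone and lowest with the Y set alone. With the mixes alone, 2 against 2, and their number as a replicate block, the medians were 0.10 and 0.07, and 0 members passed with or without that block. At an unadjusted p of 0.05 there were 7 members with it (11.9%), against 6.07% of all genes, and 6 without it (10.2%), against 4.82% of all genes. Of the 59 members, 39 kept their side of 0 without any single array, 33 above and 6 below. The median set difference was 0.21 both after quantile normalization and with arrays centred on their medians. The members higher in the Xist set without overlap, 10 as reported, numbered 12 after quantile normalization, against 7.04% of all genes, 7 with centred arrays, against 6.84% of all genes, 15 without WT replicate 3, against 8.06%, and 21 without the mixes, against 14.3%. With only genes above the median level kept, they numbered 10 of 49 (20.4%), against 13.9% of all such genes.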
